A study of Mus musculus with 6 samples.

Results

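SRC family kinases, the related kinases that dasatinib (DASA) binds and the focal adhesion proteins they act with were described here in PTX-resistant mouse gastric adenocarcinoma cells. The 10 genes were listed by name out of the 21959 genes of the count table, and not by their values: Src, Yes1, Fyn, Lyn and Frk, the ABL kinases Abl1 and Abl2, the SRC inhibitor kinase Csk, the focal adhesion kinase gene Ptk2, and Bcar1, which encodes the adaptor p130CAS and no kinase. Earlier results of these data were known when the list was made. All 10 genes had enough counts to be tested, among the 11795 genes tested in all. The study treated the resistant cells with DASA. It also knocked down Src in them and reported fewer peritoneal lesions in mice than with control cells. The comparison here asks which RNAs of the drug's targets the parental and the resistant line contain. RNA levels carry no information on phosphorylation, so kinase activity was not measured in these data.

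Poly-A RNA was sequenced from MPC, a mouse gastric adenocarcinoma line, and from MPC-PTX, its derivative with acquired resistance to PTX, as 3 libraries per line. The study's text calls these lines MTC and MTC-R. Both lines carry CDH1-/-;Trp53-/-, which arose when tamoxifen activated Mist1-CreER in floxed C57BL/6J gastric organoids, and both were grown in RPMI medium with serum. MPC came from a subcutaneous organoid tumour in a nude mouse by monoclonal selection, and MPC-PTX received over 30 cycles of PTX and then also went through monoclonal selection, so each line stands for 1 clone. The labels give no animal age, place all 6 libraries in batch 1 and do not say that replicates were separate cultures, so p-values measure only the spread between these libraries, which may be technical.

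SRC family kinases sit under the cell membrane and pass on signals from integrins, growth factor receptors and cell contacts. CSK phosphorylates a tyrosine in their tail and thereby holds them closed. At focal adhesions, FAK (the product of Ptk2) and SRC bind each other and phosphorylate p130CAS, paxillin and other scaffolds that control adhesion, spreading and migration. ABL kinases regulate the actin skeleton through partners such as the ABI and WAVE proteins. In epithelia SRC and YES1 are the usual family members, FRK is an epithelial relative, and LYN, FGR, BLK and LCK are best known from blood cells. DASA blocks the ATP site of SRC family and ABL kinases, and of CSK, KIT, PDGF receptors, DDR1 and several ephrin receptors as well.

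Total counts ranged from 16574580 to 23148182 per library, with 13897 to 14295 genes detected. The libraries were not equally alike. The biological coefficient of variation was 17.9% among MPC and 3.01% among MPC-PTX libraries. The deviation of MPC replicate 3 from the mean of its line had a Spearman's rho of -0.607 with transcript GC content and 0.477 with transcript length. This was over 11776 genes, and genes do not count as replicates. MPC replicates 1 and 2 deviated the other way (rho 0.491 and 0.356 with GC content, -0.438 and -0.202 with length). Deviations from a shared mean are linked, so they cannot assign the difference to 1 library. For the 10 genes, fold changes whose call or direction depended on MPC replicate 3 are given with and without it. Mean levels, their order and ranks include it. The targeted genes were still counted, with 2217 to 3068 counts of Cdh1 and 63 to 142 counts of Trp53 in a library, and counts per gene do not show which exons were deleted. All 10 epithelial markers examined (Krt7, Krt8, Krt18, Krt19, Epcam, Cldn4, Cldn7, Muc1, Esrp1 and Cdh1) were measured, and their summed level was 10400 to 11970 CPM (read counts relative to the TMM-scaled size of the library) in MPC and 6510 to 6690 CPM in MPC-PTX. Of these markers 9 fell in the resistant line, where 15.6% of all tested genes fell. The part of this shift in the changes of the 10 genes was not tested. Markers of leukocytes (9.92 to 13.25 CPM summed over 10 genes), fibroblasts (8.63 to 10.91 CPM over 9 genes) and endothelial cells (3.07 to 4.84 CPM over 6 genes) were low in every library.

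The promoters below are shown because Src and Csk fell by similar amounts in MPC-PTX while Yes1 and Frk were high in a single MPC library. Each is the 150 bases before a RefSeq transcript start (GRCm38.p6), written 5′ to 3′ on the gene's strand, with capitals for the GC box GGGCGG on either strand. The Src window lies at chr2:157424143-157424292 on the plus strand, inside the GENCODE gene and 5849 bases from its start. The Csk window lies at chr9:57653632-57653781 on the minus strand and directly precedes the gene. The Yes1 window (chr5:32611021-32611170) and the Frk window (chr10:34483250-34483399) are both on the plus strand at the gene start.
Src: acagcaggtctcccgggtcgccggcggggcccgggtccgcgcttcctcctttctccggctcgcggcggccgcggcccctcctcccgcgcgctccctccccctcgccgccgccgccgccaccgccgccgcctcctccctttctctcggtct
Csk: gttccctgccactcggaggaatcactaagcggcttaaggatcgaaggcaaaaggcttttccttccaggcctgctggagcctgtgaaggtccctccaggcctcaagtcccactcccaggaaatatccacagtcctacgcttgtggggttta
Yes1: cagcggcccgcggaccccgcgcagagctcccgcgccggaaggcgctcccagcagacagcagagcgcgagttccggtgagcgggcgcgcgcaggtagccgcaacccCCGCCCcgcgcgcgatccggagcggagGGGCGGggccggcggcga
Frk: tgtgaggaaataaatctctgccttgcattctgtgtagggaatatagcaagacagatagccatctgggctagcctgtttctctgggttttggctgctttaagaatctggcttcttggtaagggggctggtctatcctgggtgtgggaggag
The Src window is 80% G and C with 25 CpG, the Yes1 window 80.7% with 28 CpG, the Csk window shown 55.3% with 4 CpG, and the Frk window 48.7% with no CpG, against a median of 54.0% GC over the 32851 promoter windows of the RefSeq table. RefSeq gives Csk a further start inside the gene, whose window (chr9:57645654-57645803) is 72.0% G and C with 15 CpG. Yes1 holds 2 GC boxes, and the same letters occur in 28.6% of all windows. The windows shown for Src, Csk and Frk hold none of the 3 motifs searched, the GC box, CCAAT (24.5% of all windows) and TATAAA (7.57%), on either strand. A match in letters is a description and not a binding site. Windows were found for 8 of the 10 genes, not for Lyn and Ptk2.

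Of the 10 genes, Src, Csk and Lyn fell in MPC-PTX and none rose. The test was the quasi-likelihood test of edgeR, with Benjamini-Hochberg adjusted p-values over all 11795 genes and a threshold of 0.05. By the same rule 29.7% of all tested genes were called, 14.1% higher and 15.6% lower, so 3 of 10 is near the share over all genes. Before adjustment, 0 of the 10 were higher and 4 lower at p below 0.05, and DESeq2 called 0 higher and 3 lower. With the study's own rule, which asks for a log2 fold change beyond 1 in either direction and an unadjusted p under 0.05 and which 8.11% of all genes met, edgeR and DESeq2 each selected 0 of the 10. The libraries of the lines did not overlap in CPM for 4 of the 10 (Src, Lyn, Csk and Abl1) and for 46.9% of all genes. The median log2 fold change was -0.04 over the 10 genes and 0.04 over all genes. Without MPC replicate 3, Yes1 and Abl2 were called higher and Abl1 joined the 3 lower genes, while 25.4% of all genes were then higher and 27.1% lower. The number of calls over all genes also moved with other libraries, from 1668 higher and 1841 lower to 934 and 1222 without MPC replicate 2, and to between 803 and 840 higher and between 1077 and 1122 lower when an MPC-PTX library was left out, whereas Src, Csk and Lyn were called in each of 14 alternatives.

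**Figure D1:**
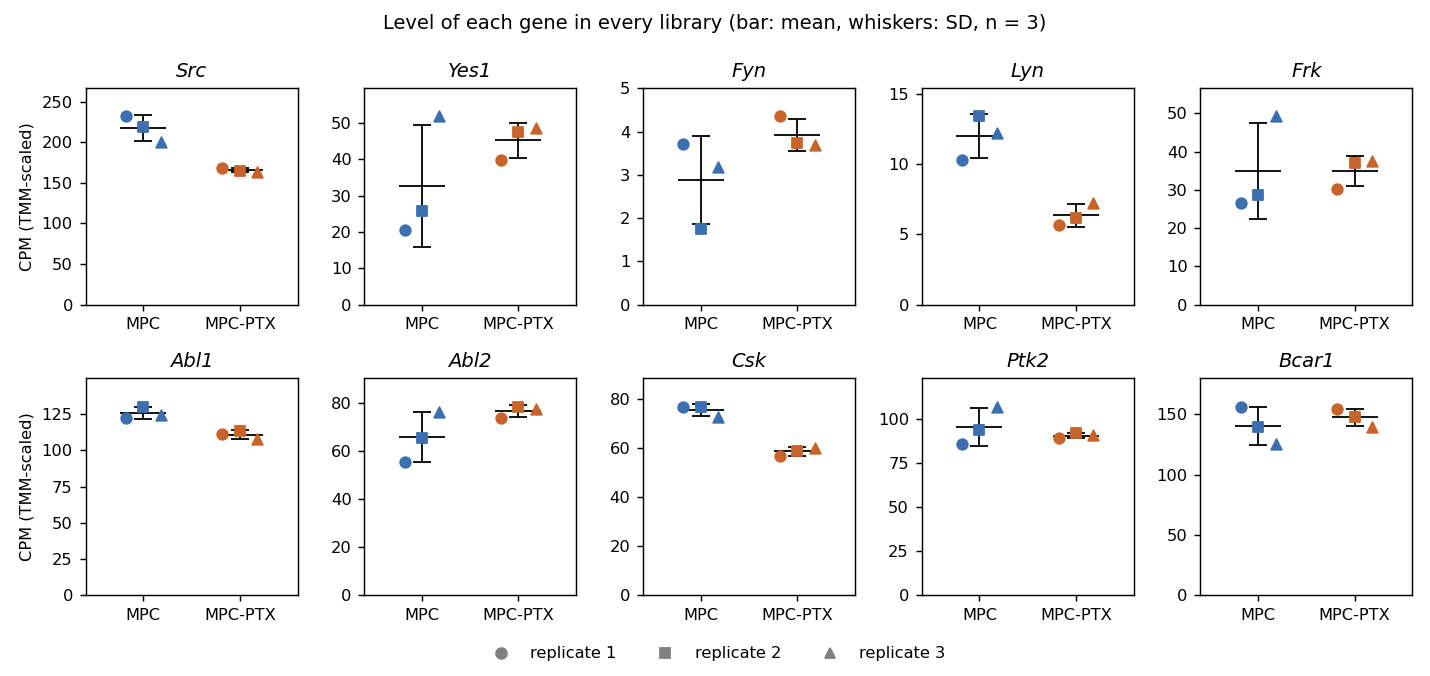
CPM (library size scaled by TMM) of each of the 10 genes in every library, 1 panel per gene with its own axis from 0, with points for libraries, a bar for the mean and whiskers for the SD of 3 libraries. In Src, Lyn, Csk and Abl1 every MPC-PTX point lies below every MPC point, and in Yes1 and Frk the triangle of MPC replicate 3 lies far above the other MPC points.

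Src, the founding member of the family, lies on chromosome 2 (157418444 to 157471862, plus strand, GRCm38) and gave between 2750 and 4370 counts in a library. Its level was 232.2, 219.2 and 200.7 CPM in the MPC libraries and 168.2, 164.5 and 163.4 CPM in the MPC-PTX libraries. Every resistant library was below every parental library, and the resistant libraries were closer together. The mean went from 217 ± 15.8 CPM to 165 ± 2.51 CPM (SD, n = 3 each). The log2 fold change was -0.39 (SE 0.07, edgeR adjusted p = 0.00533), so the level fell by 23.9%. Over the 14 alternatives the log2 fold change stayed between -0.50 and -0.35 and the adjusted p between 1.87e-05 and 0.0369. In bulk RNA, fewer cells with the transcript and less of it per cell cannot be told apart.

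Csk encodes the kinase that switches SRC family members off, and its RNA fell by 22.3%, close to the change of Src. The gene is on chromosome 9 (57626646 to 57653631, minus strand). It measured 76.7, 76.9 and 72.5 CPM in MPC and 56.6, 59.0 and 60.1 CPM in MPC-PTX, so the lines did not overlap. The log2 fold change was -0.36 (SE 0.07, edgeR adjusted p = 0.00662). In the alternatives it ranged from -0.44 to -0.33, with adjusted p from 0.00022 to 0.0493. The target kinase and its inhibitor were thus both lower in the resistant line, and the difference between their changes was not tested.

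Lyn had the largest change of the 10 genes. It is a family member of blood cells that some carcinomas also express, on chromosome 4 (3678115 to 3813122, plus strand). Its counts were low, at 194, 260 and 254 in MPC and 133, 136 and 122 in MPC-PTX, which correspond to 10.3, 13.4 and 12.2 CPM against 5.68, 6.13 and 7.25 CPM. The lines did not overlap, and the level fell by 47.1% (log2 fold change -0.92, SE 0.15, edgeR adjusted p = 0.00385). The alternatives gave -1.02 to -0.83 with adjusted p from 1.39e-05 to 0.0255. Of the leukocyte markers, Ptprc had 3, 1 and 6 counts in MPC and 5, 6 and 5 in MPC-PTX, and Cd3e at most 1 in a library. Laptm5 had 6, 8 and 11 counts in MPC and 0 in every MPC-PTX library, while Adgre1 had 3, 1 and 1 against 6, 8 and 1. Cd68, a lysosomal protein gene on the same list, had 150 to 242 counts, about as many as Lyn. The part of such cells in the Lyn values was not tested. Lyn shares 248 exon bases with the antisense gene Gm26857, which is absent from the rows of the count table, and the use of strand in counting is not stated.

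Yes1 had a positive log2 fold change, which passed the test only without MPC replicate 3. This kinase is the close relative of SRC that most epithelia express, and its gene is on chromosome 5 (32611171 to 32687057, plus strand). It had 387 and 498 counts in MPC replicates 1 and 2 but 1080 in replicate 3, and 929, 1051 and 819 in MPC-PTX. In CPM these were 20.6, 25.7 and 51.9 against 39.7, 47.4 and 48.7, so that the highest value of all belonged to an MPC library. With all libraries the log2 fold change of 0.46 (SE 0.33) did not pass the test (edgeR adjusted p = 0.331). Without MPC replicate 3 it was 0.91 with an adjusted p of 0.00028, and with each library corrected for GC content and transcript length it was 0.33 with an adjusted p of 0.104. Yes1 shares 635 exon bases with the antisense gene Gm10461, also absent from the table.

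Frk, an epithelial kinase of the SRC-related FRK group, behaved like Yes1 in replicate 3. It is on chromosome 10 (34483399 to 34611278, plus strand) and measured 26.7, 28.7 and 49.3 CPM in MPC and 30.4, 36.9 and 37.4 CPM in MPC-PTX. The MPC-PTX values lay between the third MPC library and the other two. The log2 fold change was -0.0017 (SE 0.24, edgeR adjusted p = 0.996), and without MPC replicate 3 it turned to 0.28 (adjusted p = 0.0516). After correction for GC content and length it was -0.18 (adjusted p = 0.107), so the data fix no direction for Frk.

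Fyn, a family member of neurons, T cells and fibroblasts, was low, with 70, 34 and 66 counts in MPC and 102, 83 and 62 in MPC-PTX. It is on chromosome 10 (39368855 to 39565381, plus strand). The levels of 3.72, 1.75 and 3.17 CPM and of 4.36, 3.74 and 3.68 CPM overlapped. The log2 fold change of 0.45 (SE 0.27) did not pass the test (edgeR adjusted p = 0.246), and it ranged from 0.19 to 0.67 over the alternatives without passing in any.

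In MPC replicate 3, Yes1 and Frk, the members with the lowest GC content, were raised the most, and the rest did not follow GC content strictly. Relative to the mean of the other MPC libraries, replicate 3 had 2.24 times the Yes1 level and 1.78 times that of Frk, whose longest coding transcripts are 41.1% and 40.6% GC. It had 0.889 times the Src level at 59.3% GC, 0.944 times that of Csk at 60.1% and 0.846 times that of Bcar1 at 59.9%. Spearman's rho between this ratio and GC content over the 10 genes was -0.842, given as a description, since the points share 1 library. Lyn, at 45.8% GC, had a ratio of 1.03.

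**Figure D2:**
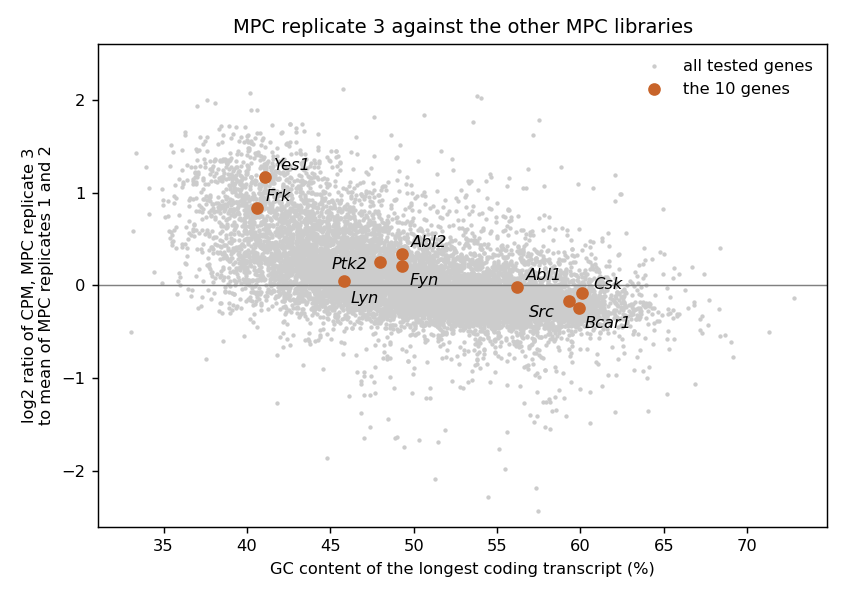
GC content of the longest coding transcript (horizontal axis, percent) against the log2 ratio of CPM in MPC replicate 3 to the mean of MPC replicates 1 and 2 (vertical axis), with all tested genes in grey and the 10 genes in orange. Yes1 (ratio 2.24) and Frk (1.78) lie at the upper left, and Src (0.889) and Bcar1 (0.846) lie below 0 on the right.

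Abl1 and Abl2 encode the kinases for which DASA is best known in leukaemia, and their log2 fold changes had opposite signs, neither past the threshold with all libraries. Abl1 (chromosome 2, 31688376 to 31804227, plus strand) measured 122, 130 and 124.5 CPM in MPC and 111, 114 and 108 CPM in MPC-PTX. Its lines did not overlap, but the difference was small (log2 fold change -0.18, SE 0.06) and missed the threshold (edgeR adjusted p = 0.0612). It passed without MPC replicate 1 (-0.20, adjusted p = 0.0354), without MPC replicate 3 (-0.24, adjusted p = 0.00584), with DESeq2's size factors (-0.22, adjusted p = 0.0487) and with the GC correction (-0.17, adjusted p = 0.0232). Abl1 shares 94 exon bases with the antisense gene Gm13427, for which the table holds no row.

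Abl2 (chromosome 1, 156558786 to 156649568, plus strand) measured 55.5, 65.3 and 76.3 CPM in MPC and 73.8, 78.5 and 77.2 CPM in MPC-PTX. The third MPC library lay within the resistant range and the other MPC libraries below it. The log2 fold change was 0.22 (SE 0.12, edgeR adjusted p = 0.202). Without MPC replicate 3 it was 0.29 with an adjusted p of 0.0151, and with the GC correction it shrank to 0.01 with an adjusted p of 0.955.

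The 2 focal adhesion genes did not pass the test in any alternative. Ptk2, which encodes FAK (chromosome 15, 73205102 to 73423280, minus strand), measured 86.1, 93.6 and 107 CPM in MPC and 89.3, 91.9 and 90.9 CPM in MPC-PTX, a log2 fold change of -0.08 (SE 0.09, edgeR adjusted p = 0.555). Bcar1 (chromosome 8, 111710474 to 111743809, minus strand) measured 156, 139.5 and 125 CPM in MPC and 154, 148 and 140 CPM in MPC-PTX. Its log2 fold change was 0.07 (SE 0.09, edgeR adjusted p = 0.600), and it turned to -0.06 without MPC replicate 3.

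**Figure D3:**
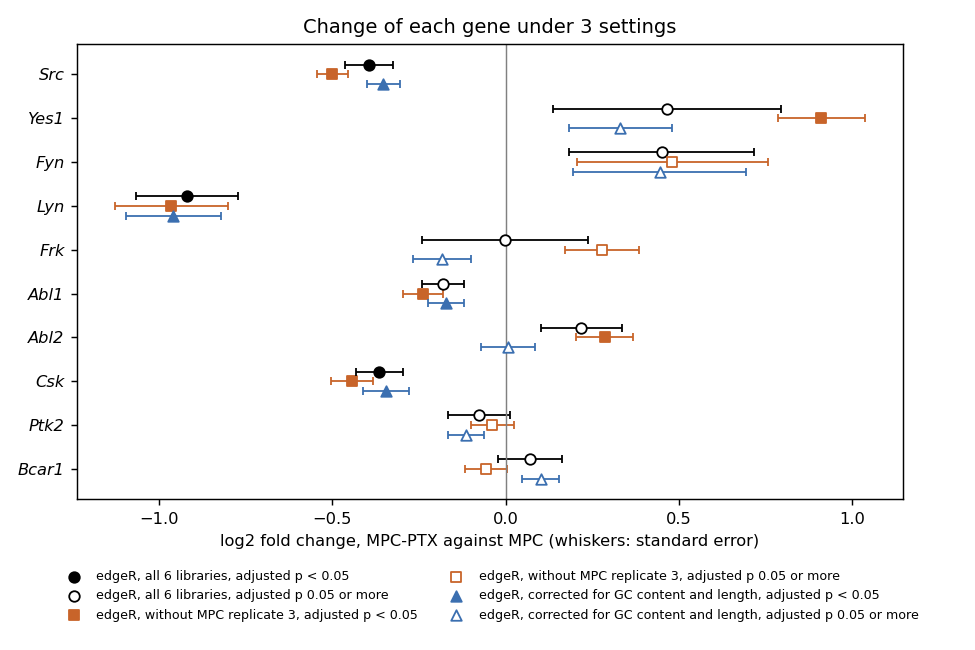
Log2 fold change of MPC-PTX against MPC for the 10 genes (horizontal axis) with its standard error as whiskers, from edgeR on all 6 libraries (circles), without MPC replicate 3 (squares) and with correction for GC content and length (triangles); filled symbols have an adjusted p below 0.05. Src, Lyn and Csk are filled and left of 0 in each, whereas Yes1 is filled only without replicate 3 (0.91) and Frk and Bcar1 change side.

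Between genes, levels were compared as CPM per kilobase of the longest coding transcript. In MPC the order was Src (55.7 ± 4.05 CPM per kilobase, SD, n = 3), Bcar1 (44.7 ± 4.97), Csk (27.4 ± 0.907), Ptk2 (20.5 ± 2.30), Abl1 (19.9 ± 0.656), Frk (7.43 ± 2.67), Yes1 (7.13 ± 3.67), Abl2 (6.47 ± 1.02), Lyn (3.46 ± 0.451) and Fyn (0.809 ± 0.285). Libraries of neighbours in this order overlapped between Ptk2 and Abl1 and among Frk, Yes1 and Abl2, and were apart otherwise. In MPC-PTX Bcar1 (46.9 ± 2.31) came before Src (42.3 ± 0.643), and Yes1 (9.87 ± 1.06) came before Abl2 (7.54 ± 0.237) and Frk (7.43 ± 0.838), which overlapped. The ratio of Src to Bcar1 went from 1.25 ± 0.0494 to 0.904 ± 0.0326 without overlap. With the union of all exons as the length, a choice made after the values were seen, the ratios were 1.62 and 1.17, so the exchange of the first place depends on the length used.

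Src had the highest mean level per kilobase among the 54 tyrosine kinase genes tested, in both lines, ahead of Tnk2 and Ddr1. Tnk2 was close, at 51.3 ± 1.13 CPM per kilobase in MPC and 39.6 ± 2.20 in MPC-PTX (SD, n = 3 each). In MPC the libraries of Src and Tnk2 overlapped. Csk ranked 11 in MPC and 13 in MPC-PTX, Ptk2 ranked 15 in both, Frk 27 in both and Lyn 38 in both. Yes1 ranked 30 in MPC and 21 in MPC-PTX. Src therefore kept the first rank by mean level after its level had fallen, and no other transcript length was tried for this rank.

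Summed over Src, Yes1, Fyn, Lyn, Frk, Fgr, Lck and Blk, the level was 74.4, 73.1 and 78.3 CPM per kilobase in MPC and 62.9, 64.6 and 65.8 in MPC-PTX. The lines did not overlap in this sum, whose mean was 75.3 ± 2.69 and 64.5 ± 1.46 (SD, n = 3 each). An exact permutation test of 3 libraries against 3 cannot give a p below 0.1, and none was run on the sum. Src made up 79.9%, 76.8% and 65.6% of the sum in MPC and 68.4%, 65.2% and 63.5% in MPC-PTX, so that only MPC replicate 3 reached into the resistant range. Yes1 held 6.02%, 7.66% and 14.5% in MPC and 13.7%, 16% and 16.1% in MPC-PTX, and Lyn 4.0%, 5.3% and 4.5% against 2.61%, 2.74% and 3.18%.

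**Figure D4:**
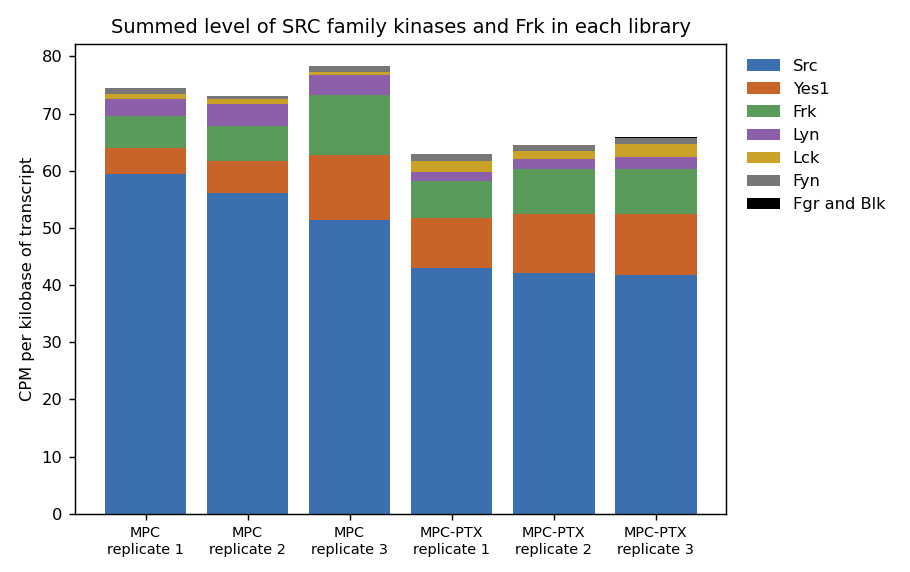
Summed CPM per kilobase of transcript of 8 SRC-related kinase genes in each library (vertical axis from 0), stacked by gene. The MPC bars reach 73.1 to 78.3 and the MPC-PTX bars 62.9 to 65.8, Src is the largest part of each, and MPC replicate 3 has Yes1 and Frk parts like or above those of MPC-PTX.

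Outside the 10 genes, the SRC-related kinase gene Lck had enough counts to test. Lck, a T-cell kinase, had 33, 38 and 30 counts in MPC and 96, 68 and 84 in MPC-PTX, or 1.75, 1.96 and 1.44 CPM against 4.10, 3.07 and 4.99 CPM. Every resistant library was above every parental library, and Lck rose with a log2 fold change of 1.23 (SE 0.24, edgeR adjusted p = 0.00796), from a level that gave it 1.05% of the family sum to 2.87%. Fgr, Blk and Srms had at most 2 counts in a library, and Ptk6 had 0 in all. The T-cell marker Cd3e had at most 1 count, as given above.

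Among 15 tested regulators of SRC family kinases, 1 rose and 2 fell, against 14.1% and 15.6% of all genes. Their median log2 fold change was -0.13. Srcin1, which encodes an adaptor that recruits CSK to SRC, fell from 3.29 ± 0.860 to 1.13 ± 0.259 CPM (log2 fold change -1.54, SE 0.27, edgeR adjusted p = 0.00574). The phosphatase gene Ptpn2 rose (0.38) and the ubiquitin ligase gene Cblc fell (-0.36). Leaving out MPC replicate 2 or an MPC-PTX library reduced these calls to 0 higher and 1 lower. Over all genes these omissions left 934 and 1222, or 803 to 840 and 1077 to 1122, against 1668 and 1841. On this list, leaving out MPC replicate 3 raised the calls to 2 and 4, where 25.4% of all genes were higher and 27.1% lower. The GC correction gave 2 and 5 on the list, and 2530 and 2479 over all genes.

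In the focal adhesion and CAS list, 5 of 33 tested genes rose and 12 fell, against 14.1% and 15.6% of all genes. Its median log2 fold change was -0.08. Parvb, the gene of the adhesion protein beta-parvin, had 126, 107 and 157 counts in MPC and 5, 2 and 3 in MPC-PTX, a log2 fold change of -5.31 (SE 0.29, edgeR adjusted p = 3.81e-05). Elmo1, whose product works with DOCK proteins downstream of CAS and CRK, fell from 8.06 ± 1.02 to 0.575 ± 0.125 CPM (log2 fold change -3.82). Sorbs3, which encodes the vinculin partner vinexin, fell by 2.00 on the log2 scale, and Ptk2b, the gene of PYK2, the closest relative of FAK, by 1.17, from 98.6 ± 5.70 to 43.7 ± 2.72 CPM. Fermt2, which encodes the integrin activator kindlin-2, rose from 11.6 ± 0.597 to 32.6 ± 1.69 CPM (log2 fold change 1.49), while its relative Fermt1, named after its values were seen, fell (-0.76). Smaller decreases of Vcl (-0.54), Zyx (-0.54), Pxn (-0.29) and Nedd9 (-0.29), the genes of vinculin, zyxin, paxillin and a CAS relative, were also picked out after the values were seen, as were the increases of Tln2 (0.69), Tns4 (0.68), Tns3 (0.27) and Arhgef7 (0.22), the genes of talin-2, 2 tensins and an exchange factor for RAC. When an MPC-PTX library was left out, 3 genes of the list were called higher. Over all genes 803 to 840 were then higher, against 1668 with all libraries.

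All 20 SRC substrates and effectors on the list were tested, and 5 rose and 8 fell, against 14.1% and 15.6% of all genes. Their median was -0.16. Cav1, the gene of caveolin-1, a membrane scaffold that SRC phosphorylates, rose from 71.4 ± 2.097 to 160.5 ± 3.72 CPM (log2 fold change 1.17, SE 0.06, edgeR adjusted p = 2.97e-05). Among members named after their values were seen, Ctnnd1 (p120 catenin, -0.69), Cttn (cortactin, -0.33) and Tnk2 (-0.37) fell and Stat3 rose (0.25). DESeq2 or leaving out MPC replicate 2 left 3 genes higher, and leaving out an MPC-PTX library left 1. Over all genes these settings gave 1456, 934 and 803 to 840 genes higher, against 1668. Of 15 tested ABL partners and substrates 1 rose and 3 fell, against the same 14.1% and 15.6%, with a median of -0.02. Abi2, a subunit of the WAVE complex, rose (log2 fold change 1.23, SE 0.21), from 19.2 ± 6.12 to 45.4 ± 2.58 CPM. Dok2, an adaptor that ABL kinases phosphorylate, fell by 2.76 on the log2 scale, and Robo1, a guidance receptor, by 2.61. Without MPC replicate 3 the ABL list had 2 higher and 5 lower, against 25.4% and 27.1% of all genes in that setting. With the GC correction it had 2 higher and 6 lower, where 2530 of all genes were higher and 2479 lower.

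Of 24 other kinases that DASA binds, 14 were tested, of which 3 fell and 11 did not pass, with a median of -0.16. Over all genes 15.6% fell. The ephrin receptor gene Ephb2 fell from 26.7 ± 2.58 to 11.1 ± 0.536 CPM (log2 fold change -1.27, SE 0.10, edgeR adjusted p = 0.000211). Ephb3 (-0.75) and Ripk2 (-0.75), named after their values were seen, fell as well. Abundant targets on this list did not pass the test: Kit, a receptor better known from mast cells and pacemaker cells, was at 158 ± 12.5 and 174 ± 4.00 CPM (log2 fold change 0.13, adjusted p = 0.213), the collagen receptor gene Ddr1 at 159 ± 5.81 and 141 ± 2.78 CPM (-0.17, adjusted p = 0.0625), and Epha2 at 102 ± 39.98 and 130 ± 2.08 CPM (0.36, adjusted p = 0.323). Without MPC replicate 1 or with the GC correction, 5 genes of this list were lower and 1 was higher. Over all genes 2119 and 2479 were then lower, against 1841, and 2201 and 2530 higher, against 1668. The number lower on the list rose to 7 without MPC replicate 3, where 27.1% of all genes were lower.

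Of 13 tested integrin genes, 2 rose and 3 fell, against 14.1% and 15.6% of all genes, with a median of -0.09. Itgb6, which encodes an epithelial integrin subunit, fell from 104 ± 13.8 to 50.4 ± 0.975 CPM (log2 fold change -1.04, SE 0.11, edgeR adjusted p = 0.000518). Itga2b, the platelet integrin subunit, rose from 34, 37 and 15 counts to 100, 77 and 51 (log2 fold change 1.30, SE 0.34, adjusted p = 0.0260), and this call was lost without each of the MPC-PTX libraries in turn (adjusted p = 0.0585 to 0.101). Those omissions left 1 integrin gene higher, and 803 to 840 of all genes, against 1668 with all libraries. The number lower was 5 with DESeq2's size factors or without MPC replicate 1, and 6 without MPC replicate 3 or with the GC correction. Over all genes 27.1% were lower without MPC replicate 3. All-gene calls lower were 1994 with DESeq2's size factors, 2119 without MPC replicate 1 and 2479 with the GC correction, against 1841.

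Over all other tyrosine kinases, 45 of 81 were tested, 6 rose and 16 fell, against 14.1% and 15.6% of all genes, and the median was -0.14. This list shares genes with the lists above, among them Lck, Ptk2b, Tnk2, Ephb2 and Ephb3. The receptor genes Mst1r (-4.04), Ephb6 (-3.93), Fgfr1 (-2.81) and Axl (-2.11) fell. Axl had the highest level of these in MPC, with 32.9 ± 3.76 CPM against 7.61 ± 0.642 CPM in MPC-PTX. Flt3, a receptor of blood progenitors, rose from 14, 19 and 11 counts to 123, 123 and 78 (log2 fold change 2.78, SE 0.23, edgeR adjusted p = 0.000216), and Epha7 rose by a log2 fold change of 1.62.

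By position, most tested genes within 10 Mb of Lyn had negative log2 fold changes, while those within 1 Mb were divided. The other 6 tested genes that start within 1 Mb of Lyn had 3 positive and 3 negative log2 fold changes, with a median of -0.26. Within 10 Mb, a distance chosen after the values were seen, 27 of 30 genes were below 0, 19 were called lower and 1 higher, and the median was -0.72, against 0.20 over the 739 tested genes of chromosome 4. Within 5 Mb the median was -0.78 over 13 genes. Toward lower coordinates the windows held only Tmem68 and Tgs1, at -0.129 and -0.103 Mb. On the other side the farthest gene was Cibar1, at 8.475 Mb. Neighbouring genes are not independent, and whether the DNA differed there was not measured.

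**Figure D5:**
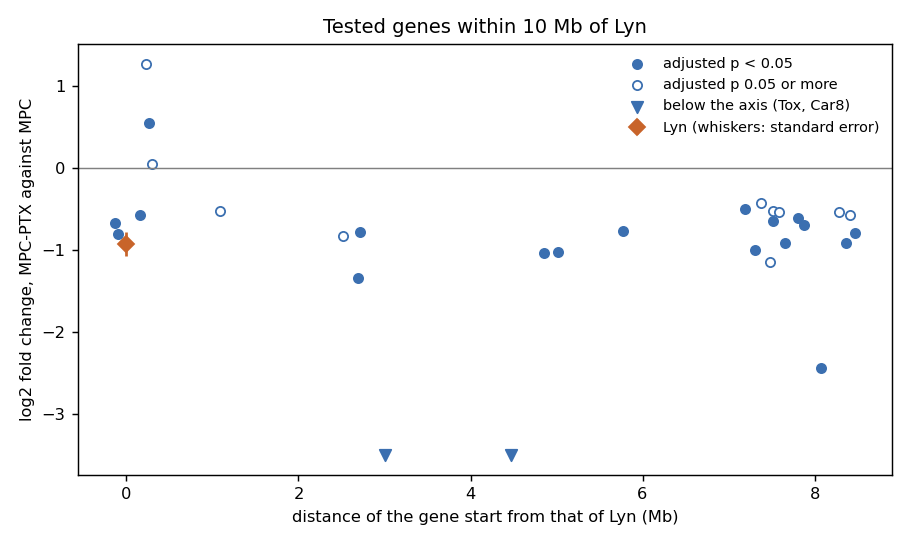
Distance of each tested gene's start from that of Lyn (horizontal axis, Mb) against its log2 fold change in MPC-PTX (vertical axis), filled where the adjusted p is below 0.05; Lyn is the orange diamond with its standard error, and Tox and Car8 lie below the axis at -7.14 and -7.58. Points lie below 0 except for 3 genes (Plag1, Chchd7 and Gm11808), at 0.223, 0.261 and 0.295 Mb from Lyn.

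Around the other members, the median log2 fold changes of genes within 1 Mb were -0.07 over 20 genes beside Src (2 called higher, 4 lower), -0.03 over 15 beside Yes1, -0.15 over 10 beside Fyn, -0.21 over 7 beside Frk, 0.04 over 34 beside Abl1, -0.21 over 12 beside Abl2 and -0.06 over 6 beside Ptk2. Beside Csk, 23 of 30 genes were below 0, 9 were called lower and 1 higher, with a median of -0.16 against -0.07 over chromosome 9. Beside Bcar1 the median of 0.23 over 24 genes was close to the 0.26 of chromosome 8.

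Dynll1 (0.0142) and Ctnnbl1 (0.0172) were among the 3 tested genes whose pattern over the 6 libraries was nearest to that of Src, by root mean square difference of centred log2 CPM. Dynll1, which encodes a dynein light chain, measured 289.7, 273 and 252 CPM in MPC and 212.6, 210.9 and 204.5 CPM in MPC-PTX, and as in Src its lowest MPC value was in replicate 3. Ctnnbl1 lies 0.319 Mb from Src on chromosome 2. Both genes were picked by this pattern over the same libraries. Changes and an order of libraries like those of Src therefore follow from the choice and are no separate result. The log2 fold changes of Dynll1 and Ctnnbl1 were -0.38 and -0.37. The call of Ctnnbl1 (edgeR adjusted p = 0.0115) was lost without each of the MPC-PTX libraries in turn (adjusted p = 0.0509 to 0.0640).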

How the data were processed

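Poly-A RNA of both lines was sequenced on an Illumina platform, in libraries whose protocol, as described, does not mark strand. After read filtering (fastp 0.22.0) and mapping (HISAT2), the authors deposited 1 raw count per gene and library, neither normalized nor pooled. The genome build, annotation, counting tool and use of strand are not given in the sources used here. Counts in the sample tables were identical to those of the series table. From these, CPM were computed with TMM scaling, genes were filtered with filterByExpr (minimum count 10), and 11795 genes entered the quasi-likelihood fit of edgeR 4.0.16 under R 4.3.3 (robust glmQLFit, then glmQLFTest), with p-values adjusted by Benjamini-Hochberg. GENCODE M21 (GRCm38) gave gene positions and the length and GC content of transcripts, by Ensembl identifier (21851 of 21959 matched), and promoters from RefSeq (GRCm38.p6). The count table may rest on another build.

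The named genes were the 10 members, up to 6 genes per list whose log2 fold change was beyond 1 in size at an adjusted p under 0.05, and the 3 genes nearest to Src in pattern. A few genes that these rules or lists take in are not reported here, and the SRC family sum leaves out 1 of the planned kinases. Members and lists were chosen with earlier results of these data known. Alternatives were DESeq2 1.42.0, its size factors or library size alone, no filter, at least 10 counts in every sample, a replicate block, each library left out, no robust estimation, and a loess correction (span 0.3) for GC content and length.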

Additional observations from a re-analysis of the deposited data

How the results depend on the processing

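Src, Csk and Lyn kept their direction and their call in all 14 alternatives, and Fyn and Ptk2 kept their direction without a call. Over all genes, leaving out a library gave 803 to 3020 genes higher and 1077 to 3227 lower. The GC correction gave 2530 higher and 2479 lower. With at least 10 counts in every sample, 584 genes met the study's rule in place of 957. The pathway lists together had 10 to 28 genes higher without a library, against 20, and the 10 members had 0 to 2 higher. For Yes1, leaving out a library gave log2 fold changes from 0.22 to 0.91, for Abl2 from 0.11 to 0.29, for Abl1 from -0.24 to -0.15 and for Bcar1 from -0.057 to 0.15. Abl1 passed the test with DESeq2's size factors (-0.22) and with the GC correction (-0.17). Frk, at -0.0017, turned positive with library size alone (0.036) and with the replicate block (0.049), and ranged from -0.16 to 0.28 without a library. The causes of these shifts were not tested. With the replicate number as a block, edgeR called 1787 genes higher and 1717 lower, and 0 and 3 of the members, and it changed the call of no named gene. The deviations of samples that share a number had correlations of 0.151, -0.023 and 0.173. Samples with different numbers were not compared, so these values do not settle whether the numbers pair samples. The standard errors of Yes1 (0.33), Fyn (0.27) and Frk (0.24) were the largest of the 10, and counts were lowest for Fyn (34 to 102) and Lyn (122 to 260).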
